A study of Mus musculus with 8 samples.

Results

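Ager, the gene of the advanced glycation end product receptor RAGE, was followed with 5 of its ligand genes (Hmgb1, S100a1, S100a4, S100a6 and S100a11), its adaptor gene Diaph1 and the related receptor gene Tlr4. These 8 genes were taken by symbol from a table of 52636 genes, and all 8 were among the 16045 genes with enough counts to be tested. Ager was picked because it was much lower in the LTβR-Ig libraries of this same experiment, and the others were picked around it. The values of the 8 genes in this contrast are therefore given as a description, and no test of them is read as a result. The cells were bone marrow mesenchymal stem cells of the mouse that carry the leptin receptor (LEPR+), perivascular stroma known as a source of CXCL12 and stem cell factor. The sort gate took LEPR+ cells that lacked the blood markers CD45 and Ter119 and the endothelial markers CD31 and CD144, and polyA RNA was sequenced in bulk. The C57BL/6 mice carried no engineered allele that the labels mention, and their age is not given. One group of 4 libraries came from mice given LTβR-Ig, a soluble decoy for lymphotoxin β receptor ligands, and the other 4 from mice given HEL-Ig, a control IgG1 against hen egg lysozyme. Both proteins were injected into the blood at 150 µg once a week for 3 weeks, so the treatment was not directed to the LEPR+ cells alone. The labels do not say whether a library came from 1 mouse or several, so the spread below is the spread between these libraries.

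RAGE is a cell surface receptor of the immunoglobulin superfamily that binds several unrelated ligands: sugar-modified proteins, the nuclear protein HMGB1 once it leaves the cell, and calcium-binding S100 proteins. Its short cytoplasmic tail binds the formin DIAPH1, which links ligand binding to the small GTPases RAC1 and CDC42 and to NF-κB. Soluble forms made by splicing or by shedding of the membrane receptor can capture ligands without signalling. TLR4, the receptor for lipopolysaccharide, also responds to extracellular HMGB1.

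The sequences just before the RefSeq starts of Ager and of S100a6 and S100a11, the 2 ligand genes whose 95% intervals lay above 0, are shown to place the genes (build GRCm38.p6, plus strand, 5′ to 3′). RefSeq windows matched 6 of the 8 genes. Each window holds 230 bases, from 250 to 21 bases before the start. Capitals mark matches on either strand to the TATA box (TATAAA), the CCAAT box, the Sp1 motif (GGGCGG), the AP-1 motif (TGANTCA), the E-box (CACGTG) or the NF-κB consensus.
Ager, chr17:34597600-34597829: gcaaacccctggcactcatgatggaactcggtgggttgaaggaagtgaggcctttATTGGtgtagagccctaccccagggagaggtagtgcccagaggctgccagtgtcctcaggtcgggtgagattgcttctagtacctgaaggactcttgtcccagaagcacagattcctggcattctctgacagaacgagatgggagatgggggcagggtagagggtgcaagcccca
S100a6, chr3:90612644-90612873: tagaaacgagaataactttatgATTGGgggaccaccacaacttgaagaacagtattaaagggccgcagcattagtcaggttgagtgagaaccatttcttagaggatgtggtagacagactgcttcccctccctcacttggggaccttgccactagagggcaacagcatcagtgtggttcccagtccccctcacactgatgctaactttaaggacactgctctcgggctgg
S100a11, chr3:93520246-93520475: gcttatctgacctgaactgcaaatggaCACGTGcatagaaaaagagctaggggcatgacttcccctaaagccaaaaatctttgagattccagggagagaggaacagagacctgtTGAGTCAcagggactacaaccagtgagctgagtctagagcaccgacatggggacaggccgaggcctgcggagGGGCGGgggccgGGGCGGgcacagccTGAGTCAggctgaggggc

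The Ager window held 1 match to CCAAT, read on the minus strand, and so did that of S100a6. Of all 32851 RefSeq windows of the same length, 32.2% held CCAAT. The S100a11 window held 2 matches to GGGCGG, found in 29.8% of windows, 2 to the AP-1 motif TGANTCA, found in 6.34%, and 1 to the E-box CACGTG, found in 5.35%. TATAAA, found in 11.8% of windows, and the NF-κB consensus, found in 6.68%, had no match in these 3 windows. A match or its absence describes only these letters.

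Ager (ENSMUSG00000015452.14, chromosome 17, 34597862 to 34600936 on the plus strand in mm10) was far lower in the LTβR-Ig libraries. It had 76, 97, 122 and 75 counts in LTβR-Ig replicates 1 to 4, against 1093, 1196, 791 and 1136 counts in control replicates 1 to 4. As CPM, counts scaled by TMM-adjusted library size, these were 1.23, 1.83, 2.15 and 1.46 CPM in LTβR-Ig libraries and 17.5, 18.3, 14.1 and 19.4 CPM in control libraries. The highest LTβR-Ig library was well below the lowest control library. Ager averaged 1.67 ± 0.406 CPM with LTβR-Ig and 17.3 ± 2.27 CPM in controls (SD, n = 4 each), a 10.4-fold lower mean in the LTβR-Ig group. On the log2 scale the difference was -3.37 (SE 0.29, 95% interval -4.02 to -2.72). Leaving out any 1 library kept it between -3.51 and -3.25. The annotation lists 13 Ager transcripts, and gene counts cannot tell membrane from soluble forms. In bulk RNA, fewer cells that express a gene and less of its RNA per cell cannot be told apart.

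**Figure D1:**
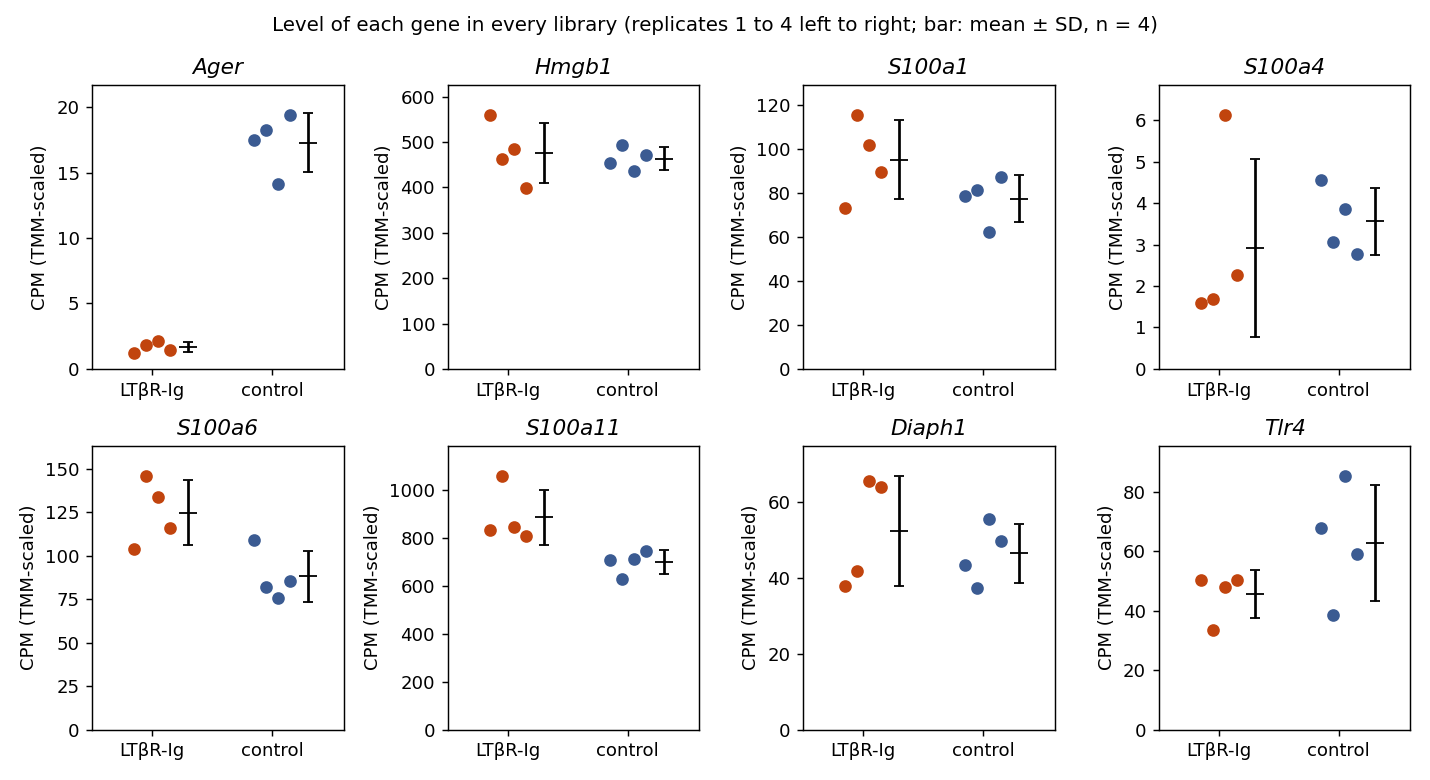
CPM (vertical axis, TMM-scaled) of the 8 genes in 4 LTβR-Ig libraries (left in each panel) and 4 control libraries (right), with the mean and SD of each group beside the points. Ager is at 1.23 to 2.15 CPM in LTβR-Ig and 14.1 to 19.4 CPM in control libraries, S100a11 is the only other gene whose groups do not overlap, and 1 LTβR-Ig library stands high for S100a4.

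Of the 8 genes, 1, Ager, was among the 6 genes called over the whole table (quasi-likelihood test of edgeR, Benjamini-Hochberg adjusted p under 0.05), against 0.0374% of all genes tested. It was called in 14 of 16 alternative settings, and not with the replicate number as a block or without both LTβR-Ig replicate 2 and control replicate 3, where its log2 fold change was -3.40 and -3.50. Ager and S100a11 were the members whose groups did not overlap, 1 below and 1 above, against 2.53% of all tested genes below, 2.36% above and 4.89% in either direction. Because the genes were chosen with this contrast known, nothing is read from these counts.

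Of the 4 S100 ligands, 3 had a higher mean with LTβR-Ig and 1, S100a4, a lower one. S100a11 (chromosome 3, 93520488 to 93526287), a cytosolic calcium-binding protein that can be secreted, had 833, 1059, 845 and 808 CPM in LTβR-Ig libraries and 710, 630, 712 and 747 CPM in control libraries. All 4 LTβR-Ig libraries were above all 4 controls, and replicate 2 was the highest. The log2 fold change was 0.34 (SE 0.11, 95% interval 0.09 to 0.59), a ratio of means of 1.27. S100a6 (chromosome 3, 90612882 to 90624181), also called calcyclin, had 104, 146, 134 and 116 CPM in LTβR-Ig libraries and 109, 81.9, 75.8 and 85.8 CPM in control libraries. The groups overlapped because control replicate 1 was above LTβR-Ig replicate 1. Its log2 fold change was 0.50 (SE 0.15, 95% interval 0.15 to 0.85).

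S100a1 (chromosome 3, 90511034 to 90514392), a regulator of calcium cycling in muscle, had 73.1, 115, 102 and 89.6 CPM in LTβR-Ig libraries. In control libraries it had 78.5, 81.4, 62.4 and 87.1 CPM. The ranges overlapped. S100a1 differed by 0.30 on the log2 scale (SE 0.17, 95% interval -0.08 to 0.67). Without LTβR-Ig replicate 2 and control replicate 3, which lay farthest apart on principal component 1, it was 0.10.

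S100a4 (chromosome 3, 90603771 to 90606045), a motility-associated protein also known as fibroblast-specific protein, was the ligand with the fewest counts. It had 1.59, 1.68, 6.12 and 2.28 CPM in LTβR-Ig libraries against 4.57, 3.05, 3.85 and 2.76 CPM in control libraries. Of the LTβR-Ig libraries, 3 were below every control and replicate 3 was above every control. The log2 fold change was -0.29 (SE 0.55, 95% interval -1.53 to 0.96), and without LTβR-Ig replicate 3 it was -0.94. That library also had the highest LTβR-Ig shares of counts from markers of 6 lists: monocyte or macrophage (0.235%, with 0.0909 to 0.148% in the other 3), megakaryocyte (0.349%, with 0.0887 to 0.201%), endothelial (0.0253%, with 0.00311 to 0.0101%), neutrophil (0.901%, with 0.461 to 0.715%), erythroid (3.62%, with 1.58 to 2.96%) and T or NK cell (0.0101%, with 0.00310 to 0.00464%). Among controls, replicates 3 and 4 had the highest monocyte or macrophage shares (0.194 and 0.195%) and 3.85 and 2.76 CPM of S100a4. Most of the T or NK cell counts came from a single gene, Nkg7. The part of these shares in the S100a4 value was not tested. A predicted gene, Gm42674, overlaps S100a4 on the same strand and had at most 30 counts in a library.

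Hmgb1 (chromosome 5, 149046702 to 149184489), a chromatin protein that acts as an alarm signal when released, had nearly equal means. It had 559, 462, 484 and 398 CPM in LTβR-Ig libraries and 453, 493, 436 and 472 CPM in control libraries. The controls lay inside the range of the LTβR-Ig libraries. The log2 fold change was 0.04 (SE 0.11), and its 95% interval of -0.22 to 0.29 holds no doubling or halving. Another 14 annotated Hmgb1 pseudogenes and copies together had 1.19 to 1.71% as many counts as Hmgb1 in each library, and reads of such copies may be split or lost in counting. The oppositely oriented gene Uspl1 overlaps the 5′ end of Hmgb1, and whether reads were counted by strand is not stated.

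Diaph1 (chromosome 18, 37843601 to 37935476), a formin that nucleates actin filaments, had 37.8, 41.9, 65.7 and 63.95 CPM in LTβR-Ig libraries and 43.4, 37.4, 55.5 and 49.8 CPM in control libraries. The LTβR-Ig libraries spanned nearly the whole range of the controls and reached above it. Its log2 fold change was 0.17 (SE 0.22, 95% interval -0.33 to 0.67). Tlr4 (chromosome 4, 66827584 to 66930284) had 50.5, 33.6, 48.1 and 50.4 CPM in LTβR-Ig libraries and 68.0, 38.4, 85.3 and 58.9 CPM in control libraries. Of the controls, 3 were above every LTβR-Ig library, and the control at 38.4 CPM was below 3 of them. The log2 fold change of Tlr4 was -0.46 (SE 0.25, 95% interval -1.01 to 0.10), and -0.15 without LTβR-Ig replicate 2 and control replicate 3.

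**Figure D2:**
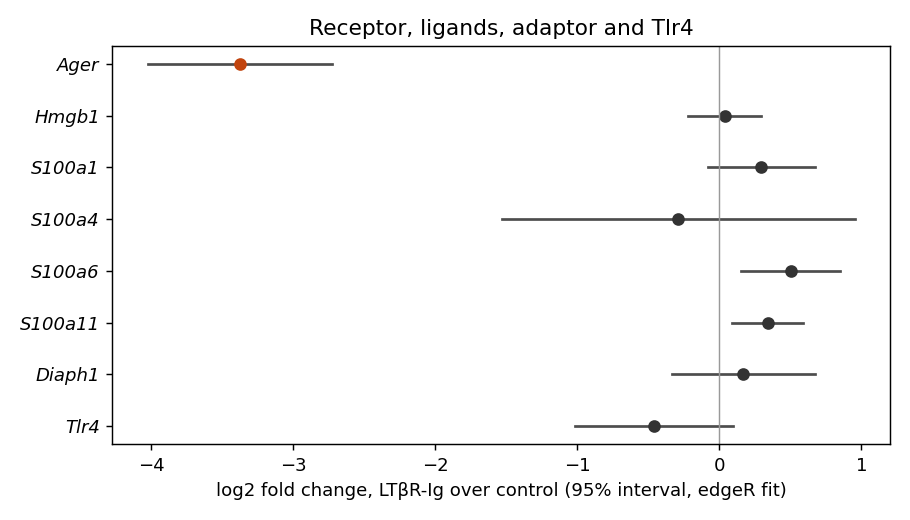
Fitted log2 fold change of LTβR-Ig over control libraries for each of the 8 genes (horizontal axis), with the 95% interval of the edgeR fit as a line (n = 4 each). Ager lies at -3.37, S100a6 and S100a11 have intervals above 0, and the intervals of the other 5 genes include 0.

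Levels of different genes were compared per length, as TMM-scaled CPM per kilobase of merged exons (RPKM). In LTβR-Ig libraries the order of the length-scaled means was S100a11 (1734 ± 228 RPKM), S100a1 (137 ± 25.8), Hmgb1 (94.7 ± 13.2), S100a6 (91.3 ± 13.6), Diaph1 (8.26 ± 2.29), Tlr4 (8.22 ± 1.45), S100a4 (4.99 ± 3.69) and Ager (0.779 ± 0.19 RPKM, SD, n = 4). In control libraries it was S100a11 (1369 ± 97.5 RPKM), S100a1 (111 ± 15.3), Hmgb1 (92.3 ± 4.93), S100a6 (64.5 ± 10.7), Tlr4 (11.3 ± 3.51), Ager (8.08 ± 1.06), Diaph1 (7.34 ± 1.23) and S100a4 (6.1 ± 1.4 RPKM, SD, n = 4). With LTβR-Ig, Ager was the last of the 8 and its range did not overlap that of S100a4, the next one up. In controls Ager stood sixth, and its range overlapped those of Tlr4 above it and Diaph1 below it. Ranges of S100a1 and Hmgb1 overlapped in both groups, those of Hmgb1 and S100a6 overlapped in LTβR-Ig libraries only, and those of Diaph1, Tlr4 and S100a4 overlapped from each to the next in LTβR-Ig libraries. By length-scaled mean Ager was above 22.9% of the genes tested in LTβR-Ig libraries and above 69.2% in control libraries. S100a11 was above 99.8% of them in both groups.

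**Figure D3:**
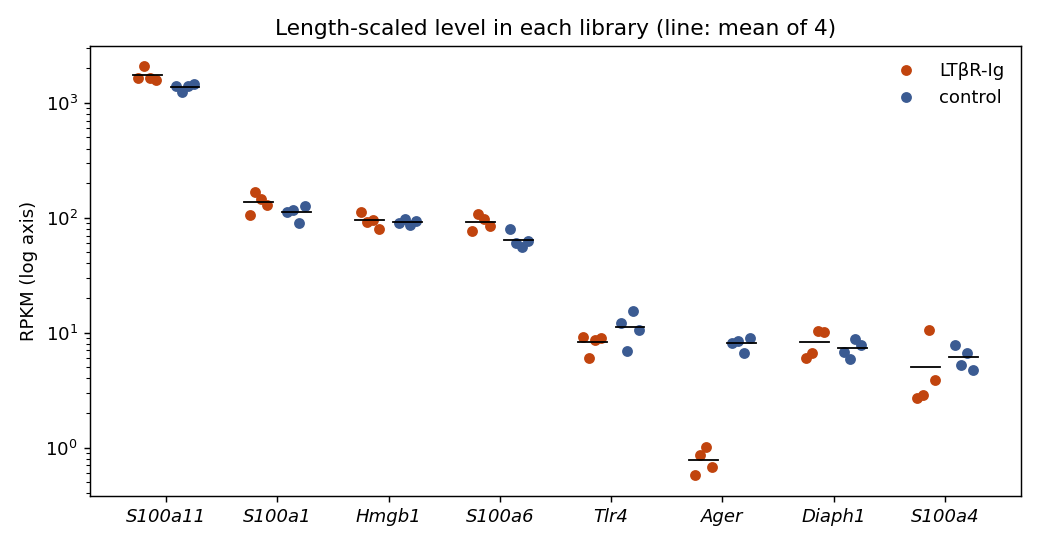
RPKM (vertical log axis) of each gene in 4 LTβR-Ig libraries (left of each pair) and 4 control libraries (right), ordered by the control mean, with a line at the mean of each group. Of the 8 genes, S100a11 is the most abundant per length in both groups. Ager is last with LTβR-Ig and sixth in controls, at 0.575 to 1.00 RPKM in LTβR-Ig against 6.59 to 9.05 RPKM in control libraries.

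The balance of these 5 ligand transcripts to the receptor transcript followed from these levels. It leaves out the other S100 genes described below, S100a8, S100a9 and S100b among them. S100a8 averaged 1407 CPM with LTβR-Ig and 1578 CPM in controls over 694 bases of merged exons. S100a11 averaged 886 and 700 CPM over 511 bases, a lower level per length than S100a8 in both groups. S100a8 and S100a9 had lower means with LTβR-Ig, and S100b a higher one. The sums, shares and ratios here therefore hold for the 5 chosen genes only. The 5 ligand genes summed to 1925, 2440, 2006 and 1878 RPKM in LTβR-Ig libraries and to 1680, 1513, 1632 and 1750 RPKM in control libraries. S100a11 made up 82.5 to 84.9% of that sum with LTβR-Ig and 81.4 to 85.4% in controls. Divided by Ager in the same library, the ligand sum was 2738 ± 558 with LTβR-Ig and 206 ± 30.1 in controls (SD, n = 4 each). Tlr4 per Ager was 11.2 ± 4.04 with LTβR-Ig and 1.45 ± 0.648 in controls, and Diaph1 per Ager was 10.8 ± 2.94 with LTβR-Ig and 0.932 ± 0.275 in controls. Of the summed length-scaled level of Ager and Tlr4, Ager held 5.96 to 12.4% in LTβR-Ig libraries and 30.0 to 55.2% in control libraries. These ratios contain the Ager values and are no separate evidence.

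The 8 genes also differed in how evenly they were measured within a group. The coefficient of variation of CPM over 4 libraries was 24.3% for Ager with LTβR-Ig and 13.1% in controls. For Hmgb1 it was 13.9% with LTβR-Ig and 5.34% in controls, and for S100a11 13.1% with LTβR-Ig and 7.12% in controls. S100a4 had 74.0% with LTβR-Ig and 22.9% in controls, and Tlr4 had 17.7% with LTβR-Ig and 31.1% in controls. After the group means were taken out, the log2 CPM of Ager correlated over the 8 libraries with that of S100a1 (r = 0.89), S100a6 (0.66) and S100a4 (0.51), less with S100a11 (0.27) and Diaph1 (0.23), and with r = -0.05 for Hmgb1 and -0.48 for Tlr4. These coefficients rest on 8 libraries that share their scaling and are descriptive.

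The genes beside Ager were examined to see the values of the locus around it. Of the 14 annotated genes within 50 kb of Ager, 11 were tested and none was called (edgeR adjusted p). Before adjustment 3 neighbours were higher and 0 lower at p under 0.05 in edgeR, where 3.39% of all genes were higher and 2.93% lower. The median log2 fold change of the 11 was 0.45, against -0.0021 over all genes tested. Among the 11 were Notch4 (1.33), Gm20463 (0.90) and Egfl8 (-0.69), which had at most 72, 30 and 69 counts in a library. Pbx2, a homeobox cofactor gene that ends 462 bases before Ager on the same strand, had 14.3, 15.7, 6.98 and 5.64 CPM in LTβR-Ig libraries and 17.3, 11.5, 11.8 and 22.4 CPM in control libraries. Its groups overlapped, and the fitted log2 difference was -0.56 (interval -1.46 to 0.33; edgeR adjusted p = 0.987). Rnf5, a membrane ubiquitin ligase gene that ends 155 bases past Ager on the opposite strand, had 49.0, 55.2, 57.7 and 53.2 CPM in LTβR-Ig libraries and 56.1, 52.5, 63.7 and 56.6 CPM in control libraries. Its log2 fold change was -0.09 (95% interval -0.35 to 0.17, edgeR adjusted p = 1).

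The 3 neighbours with the smallest p were higher in all 4 LTβR-Ig libraries than in any control, against 2.36% of all genes tested. Gpsm3, a regulator of heterotrimeric G proteins in immune cells, had 16.1, 18.0, 36.9 and 37.6 CPM in LTβR-Ig libraries and 10.3, 12.7, 16.1 and 12.7 CPM in control libraries (log2 fold change 1.07, edgeR adjusted p = 0.504). Ppt2, a lysosomal thioesterase gene, had a log2 fold change of 0.45 (edgeR adjusted p = 0.561). Atf6b, an endoplasmic reticulum stress factor gene, had 0.47 (edgeR adjusted p = 0.683). No neighbour had a 95% interval that reached the value of Ager, except Egfl8, which had at most 69 counts in a library.

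**Figure D4:**
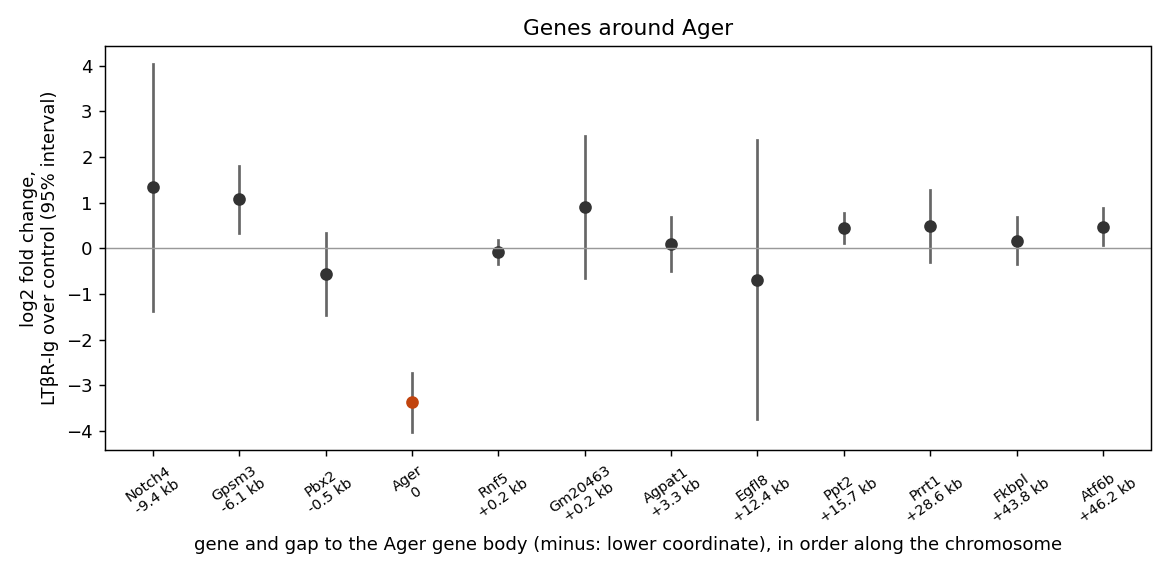
Log2 fold change of LTβR-Ig over control libraries (vertical axis, line: 95% interval of the edgeR fit, n = 4 each) for Ager and the 11 tested genes within 50 kb, in order along the chromosome with the gap to Ager under each name. Ager is at -3.37 between Pbx2 at -0.56 and Rnf5 at -0.09.

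Other genes of the RAGE pathway were grouped by role into 7 lists of 88 genes, of which 80 were tested. Over all genes 1 of the 80 was lower and 0 were higher by edgeR's adjusted p, against 0.0374% of all genes. Before adjustment 5 were lower and 6 higher at p under 0.05 in edgeR, where 2.93% of all genes were lower, 3.39% higher and 6.32% either. The median log2 fold change of the 80 was 0.05.

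In the remaining S100 family the gene with the smallest p was S100b, a glial and adipose S100 protein that is also a RAGE ligand. S100b had 229, 281, 153 and 281 CPM in LTβR-Ig libraries and 121, 121, 125 and 183 CPM in control libraries. Of the LTβR-Ig libraries, 3 were above every control, and LTβR-Ig replicate 3 was below control replicate 4. The fitted log2 difference was 0.78 (SE 0.22), and it did not pass (edgeR adjusted p = 0.444, DESeq2 adjusted p = 0.0555). S100b is also a Schwann cell marker, and the Schwann gene Sox10 had 0 counts in all 8 libraries. S100a13, which starts 43 bases from S100a1 in the opposite direction, had a log2 fold change of 0.24 (edgeR adjusted p = 0.793), against 0.30 for S100a1. S100a16 had 0.45 (edgeR adjusted p = 0.84). S100a3 had a larger fold change in the other direction, -1.07, at means of 1.24 CPM with LTβR-Ig and 2.60 CPM in controls (edgeR adjusted p = 0.937). None of the 7 tested members was called, 1 was higher at an unadjusted p under 0.05, and their median was 0.24. The neutrophil pair S100a8 and S100a9 averaged 1407 ± 451 and 707 ± 216 CPM with LTβR-Ig and 1578 ± 548 and 820 ± 297 CPM in controls (SD, n = 4 each). Neutrophil markers, of which these are 2 of 11, took 0.461 to 0.901% of counts in LTβR-Ig and 0.409 to 0.947% in control libraries. S100a5, S100a14 and S100g had 0 counts in all 8 libraries.

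Among 12 tested other ligands, 1, C3, was called. C3 encodes the central complement component, whose fragment C3a has been reported to bind RAGE. It had 98.7, 116, 130 and 113 CPM in LTβR-Ig libraries and 1404, 1769, 1226 and 1290 CPM in control libraries, with a log2 fold change of -3.64 (SE 0.15, edgeR adjusted p = 3.92e-05). C3 was known as a strongly lower gene when the list was drawn up. The collagen IV genes Col4a1 and Col4a2 had 0.20 and 0.33 (edgeR adjusted p = 0.991 and 0.762), and the list median was 0.18.

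Genes that shed the receptor or handle glycated proteins had a median log2 fold change of -0.03 over 10 genes, with 0 called and 1 lower at p under 0.05 before adjustment. That gene was Mmp9, a gelatinase reported to shed RAGE and a neutrophil product, at 14.9, 26.7, 35.1 and 14.1 CPM in LTβR-Ig libraries and 58.2, 37.4, 44.9 and 28.7 CPM in control libraries (log2 fold change -0.90, edgeR adjusted p = 0.683). Adam10, the main RAGE sheddase, had 294, 283, 316 and 232 CPM in LTβR-Ig libraries and 254, 280, 9.51 and 6.48 CPM in control libraries. Control replicates 3 and 4 were far below the other 6 libraries, and the log2 difference of 1.03 rests on them (95% interval -1.31 to 3.38; edgeR adjusted p = 1). Glo1, which removes the glycating agent methylglyoxal, had 0.10 (edgeR adjusted p = 1).

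Other receptors of glycated proteins had a median of 0.04 over 9 genes and 0 calls, with 0 at an unadjusted edgeR p under 0.05. The named ones were the oligosaccharyltransferase subunit gene Ddost (0.13), the glucosidase subunit gene Prkcsh (-0.09) and the sinusoidal scavenger receptor gene Stab2 (0.67), each with an edgeR adjusted p of 1. Stab2 was at 52.6 CPM in LTβR-Ig replicate 3, the library with the highest endothelial share, and 6.13 to 16.9 CPM in the other LTβR-Ig libraries; without that library its value was -0.16, and the part of endothelial RNA was not tested. The adhesion receptors closest to RAGE in structure, Alcam, Mcam and Bcam, had 1.10, 1.89 and -0.30 at means under 10 CPM, with none called (edgeR adjusted p = 0.965, 1 and 1) and none at an unadjusted p under 0.05.

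The TLR group had a median of 0.01 over 17 tested genes, with 0 called, and 1 lower and 1 higher at p under 0.05 before adjustment. Ly96, which encodes the MD-2 subunit that TLR4 needs to bind lipopolysaccharide, had 20.6, 20.04, 23.0 and 19.3 CPM in LTβR-Ig libraries and 24.5, 28.6, 31.0 and 25.7 CPM in control libraries. All LTβR-Ig libraries were below all controls, with a log2 fold change of -0.41 (SE 0.16, edgeR adjusted p = 0.684). Of the 17 genes 1, Ly96, lay wholly below and 0 wholly above, against 2.53% and 2.36% of all genes tested. Lbp, the lipopolysaccharide carrier, averaged 471 ± 85.4 CPM with LTβR-Ig and 348 ± 52.1 CPM in controls (log2 fold change 0.44, edgeR adjusted p = 0.649). The kinase gene Irak1 had 0.68 (edgeR adjusted p = 0.803), and the adaptor gene Myd88 averaged 92.6 ± 14.1 CPM with LTβR-Ig and 91.8 ± 8.32 CPM in controls (SD, n = 4 each).

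RAGE effectors had a median of 0.10 over 22 tested genes, with 0 called, and 2 lower and 3 higher at p under 0.05 before adjustment. Rhoa, a small GTPase gene, had 339, 397, 327 and 384 CPM in LTβR-Ig libraries and 259, 290, 212 and 257 CPM in control libraries. The groups did not overlap, and the log2 fold change was 0.51 (SE 0.12, edgeR adjusted p = 0.281, DESeq2 adjusted p = 0.0244). Mapk3, the ERK1 kinase gene, had 0.27 (edgeR adjusted p = 0.698). Nfkbia, the NF-κB inhibitor and target gene, had 31.1, 52.2, 40.1 and 45.6 CPM in LTβR-Ig libraries. In control libraries it had 58.1, 63.98, 79.6 and 62.3 CPM, again without overlap (log2 fold change -0.64, SE 0.18, edgeR adjusted p = 0.45). Of the 22 effectors, 1 lay wholly below the controls and 3, Rhoa, Mapk3 and Akt1, wholly above. Over all genes tested these shares were 2.53% below and 2.36% above.

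**Figure D5:**
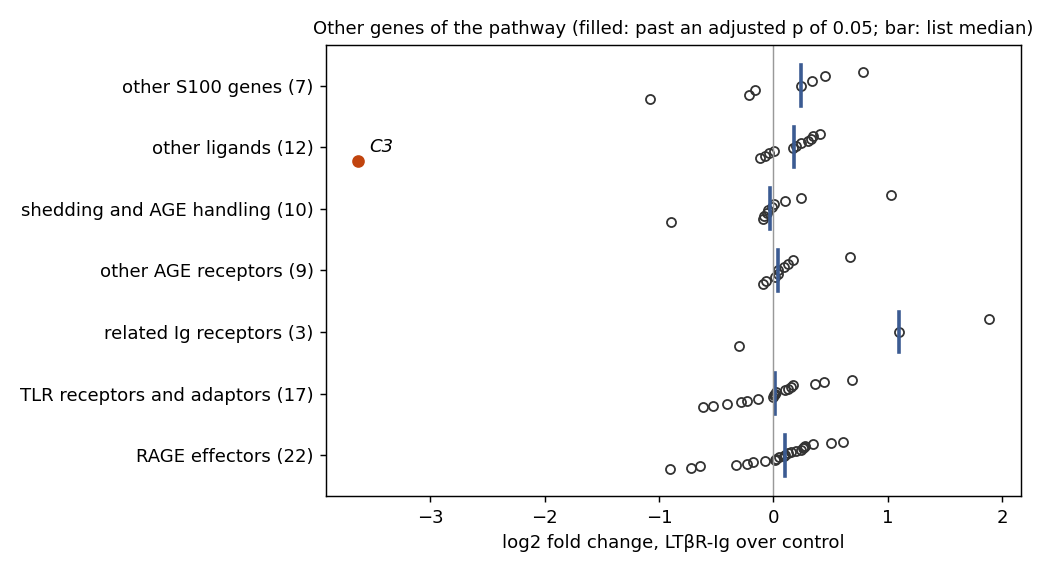
Log2 fold change of LTβR-Ig over control libraries (horizontal axis) for each tested gene of the 7 pathway lists, with the number tested in parentheses and a bar at the list median. C3 at -3.64 is the filled point past an adjusted p of 0.05, and the list medians lie between -0.03 and 0.24 apart from the 3 related Ig receptors at 1.10.

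The genes whose log2 CPM followed Ager most closely over the 8 libraries, of 11823 named genes whose average log2 CPM reached 1, were C3 (Pearson r = 0.99), Col6a4 (0.99), Lgi4 (0.99), Ccl7 (0.97) and Dclk1 (0.97). Over both groups this measure mostly ranks genes by their difference between the groups. Col6a4, a collagen VI chain gene, had 0 counts in all 4 LTβR-Ig libraries and 212, 330, 137 and 390 counts in control libraries, at least 80.9-fold lower against 3 counts per library. Lgi4, a secreted protein gene known from Schwann cells, had 0 counts in all 4 LTβR-Ig libraries and 283, 299, 76 and 395 counts in control libraries, at least 79.4-fold lower against the same floor. Col6a4 and Lgi4 were kept by the count filter only through their control counts. Neither passed over all genes in edgeR (adjusted p = 0.0665 for Col6a4 and 0.0859 for Lgi4), and both passed in DESeq2 (adjusted p = 3.02e-13 for Col6a4 and 5.87e-12 for Lgi4). The chemokine gene Ccl7 had 7.31, 13.1, 8.92 and 7.57 CPM in LTβR-Ig libraries and 27.7, 41.7, 29.8 and 37.2 CPM in control libraries (edgeR adjusted p = 0.061). Ccl7 passed in DESeq2 (adjusted p = 9.83e-09), in limma-voom (0.0439) and with the stricter filter in edgeR (0.0267). Dclk1, a microtubule-associated kinase gene, averaged 15.8 ± 3.12 CPM with LTβR-Ig and 67.5 ± 6.69 CPM in controls (SD, n = 4 each; edgeR adjusted p = 0.00738). The edgeR adjusted p of Dclk1 was 0.0533 without control replicate 3, 0.0754 without that library and LTβR-Ig replicate 2, and 0.195 with the replicate number as a block. With the group means taken out, the closest were Stk11 (r = 0.98), Pcdhb16 (0.98), Rinl (0.97), Dap (0.96) and Dera (0.95), all with an edgeR adjusted p of at least 0.946 for the contrast.

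Library totals were 52378101 to 61164510 counts with LTβR-Ig and 56466028 to 64403177 in controls. The 8 markers of LEPR+ stroma were all detected in every library and took 2.62 to 3.47% of counts with LTβR-Ig and 2.40 to 3.13% in controls. Lepr itself was at 3159 to 4498 CPM with LTβR-Ig and 4270 to 4372 CPM in controls. In LTβR-Ig libraries the markers of cells outside the gate or of other lineages took 0.0909 to 0.235% of counts (monocyte or macrophage), 1.58 to 3.62% (erythroid), 0.865 to 1.65% (osteoblast), 0.0887 to 0.349% (megakaryocyte), 0.00311 to 0.0253% (endothelial), 0.0372 to 0.139% (B or plasma cell), 0.00310 to 0.0101% (T or NK cell), 0.0178 to 0.0301% (Schwann) and at most 0.000331% (adipocyte). In control libraries the same lists took 0.0851 to 0.195% (monocyte or macrophage), 1.59 to 4.77% (erythroid), 1.03 to 1.89% (osteoblast), 0.0597 to 0.252% (megakaryocyte), 0.00461 to 0.0128% (endothelial), 0.0420 to 0.155% (B or plasma cell), 0.00342 to 0.0101% (T or NK cell), 0.0148 to 0.0217% (Schwann) and at most 0.000446% (adipocyte). The summed shares of the groups overlapped for each of the 11 lists, and none of their tested genes was called by edgeR's adjusted p. Only 5 of 7 T or NK cell, 4 of 6 Schwann and 2 of 5 adipocyte markers had enough counts to be tested. Most of the Schwann counts were S100b, most of the osteoblast counts were Ibsp and most of the T or NK cell counts were Nkg7. Jchain and Sdc1 together made up most of the B or plasma cell counts. Among single markers, Alpl was higher in every LTβR-Ig library than in any control, and Kitl and Pdgfra were lower. Of all genes tested, 2.36% lay wholly above and 2.53% wholly below. Among the osteoblast markers Alpl, Sp7 and Phex were higher at p under 0.05 before adjustment, at log2 fold changes of 0.95, 0.95 and 0.34, and of the stroma markers Kitl and Pdgfra were lower, at -0.58 and -0.29. Of the neutrophil markers Mmp8, a collagenase gene, was lower before adjustment, at -1.05 (edgeR adjusted p = 0.478). The part of any of these shares in the values above was not tested.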

How the data were processed

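The authors deposited raw gene counts, whole and not normalized, for 4 LTβR-Ig and 4 control libraries. HISAT2, HTSeq and the build mm10 are named, per the submitters' processing notes. Their versions, the annotation and the use of strand in counting are not stated. Groups came from the sample titles. Symbols, positions and exon lengths came from GENCODE M21 (GRCm38, also called mm10), which matched 52403 of 52636 gene IDs. To look for copied libraries, the counts of each pair of replicates in a group were compared. They differed by a chi-square of 140 to 265 per degree of freedom, so none was a copy of another and all 8 libraries were kept. This check does not measure library quality.

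edgeR 4.0.16 (R 4.3.3) scaled counts by TMM, filtered with filterByExpr (minimum count 10, minimum total 15) and compared LTβR-Ig with control by the quasi-likelihood F test, with Benjamini-Hochberg adjustment over 16045 genes and a threshold of 0.05. The SE is the absolute log2 fold change over the root of F. The procedure was also run on counts simulated from its own fitted dispersions, which cannot check that error model. Alternatives were DESeq2 1.42.0, limma-voom 3.58.1, other scalings and filters, a replicate block and leaving out libraries. The members and lists were chosen with earlier results of these data known. From each pathway list, genes past the threshold or else the 3 with the smallest p are named, with the nearest neighbours of Ager and the 5 genes most like it; other named genes were chosen after their values were seen. For genes with 0 counts the bound uses 3 counts per library and covers counting error only.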

Additional observations from a re-analysis of the deposited data

Results flagged for a closer look

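In a group of 4 libraries a library was taken to stand apart when the step to the next library took up most of the group's range (Dixon's criterion for 4 values). Chance gives this for about 1 in 20 groups, and 6 of 100 combinations of a gene and a group did. LTβR-Ig replicate 3 had 6.12 CPM of S100a4, where the other 3 had 1.59 to 2.28 CPM. LTβR-Ig replicate 2 was high for S100a11 (1059 CPM, others 808 to 845) and low for Tlr4 (33.6 CPM, others 48.1 to 50.5). LTβR-Ig replicate 1 was low for Ddost (294 CPM, others 315 to 319). Control replicate 4 was high for S100b (183 CPM, others 121 to 125), and control replicate 3 for Alcam (7.26 CPM, others 1.72 to 2.53). Ager had no library that stood apart in either group.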

How the results depend on the processing

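Ager kept a log2 fold change between -3.51 and -3.25 in all 16 alternatives, and C3 was called in each of them. Ager was called in 14 and not with the block or without LTβR-Ig replicate 2 and control replicate 3 together. Because Ager was chosen by this contrast, its calls are no separate support. Hmgb1 lay between -0.04 and 0.11. The number of genes called over all genes was 6 and became 199 with DESeq2 (111 lower, 88 higher), 17 with limma-voom and 22 with the stricter filter, which S100a4 did not pass. It was 2 to 9 when 1 library was left out, with 2 without control replicate 3, and 1 without both that library and LTβR-Ig replicate 2, a setting chosen after seeing the data. DESeq2 called 1 RAGE effector, Rhoa, where edgeR called 0. With the replicate number as a block 1 gene was called, C3. Deviations from the group means correlated at 0.00 to 0.075 between same-numbered libraries. Such correlations cannot show whether those libraries were handled as pairs, and the sample titles do not say. Per longest transcript in place of merged exons, 3 of the 8 genes kept their place in the level order with LTβR-Ig and 6 in controls; Ager kept its place in both. Small fold changes crossed 0 without 1 library: Rinl lay between -0.30 and 0.014 (highest with LTβR-Ig replicate 1 left out), Stk11 between -0.0048 and 0.098, and Stab2 between -0.16 and 1.17 (both lowest with LTβR-Ig replicate 3 left out). Stk11 had -0.024 without LTβR-Ig replicate 2 and control replicate 3. The causes were not tested. Ager had 75 to 122 counts per LTβR-Ig library, the fewest behind any of its values.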

Other observations

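S100a7a, an epithelial S100 gene that was not tested because of low counts, had 67 and 54 counts in LTβR-Ig replicates 3 and 4 and 0 counts in the other 6 libraries. The same LTβR-Ig replicates 3 and 4 had the highest CPM of Gpsm3 (36.9 and 37.6, against 16.1 and 18.0 CPM in replicates 1 and 2) and the lowest of Pbx2 (6.98 and 5.64, against 14.3 and 15.7 CPM). Gpsm3 and Pbx2 overlap on the same strand just before Ager, so reads in the shared stretch cannot be told apart. Adam10 had 533 and 380 counts in control replicates 3 and 4 and 11928 to 18329 counts in the other 6 libraries, while the totals of all 8 libraries were within the range given above. The causes were not tested.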
